A study of Mus musculus with 3 samples.

Results

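BAFF and APRIL are secreted by some immune cells and keep B cells and antibody-secreting plasma cells alive. Their transcripts, those of their 3 receptors and that of interleukin-6 (IL-6) were followed across the immune cells of inflamed sciatic nerve. The 6 genes were Tnfsf13b (BAFF), Tnfsf13 (APRIL), Tnfrsf13c (BAFF receptor), Tnfrsf13b (TACI), Tnfrsf17 (BCMA) and Il6, taken by name from the 32285 gene rows. They were read per library in 7 marker-gated classes: B, plasma, macrophage, monocyte, dendritic, natural killer (NK) and T cells.

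Immune cells, sorted by CD45, came from enzyme-digested sciatic nerves of neuropathic NOD.AireGW/+ mice after cardiac perfusion. In these mice Aire, a gene that displays self antigens in the thymus, has partly lost its function on the NOD background, which is prone to autoimmunity. The 3 libraries form 1 group, with a single mouse behind library 1, another behind library 2, and a pool of 2 mice behind library 3. Every library carries the same genotype and the same neuropathy and no control group was analysed, so the comparisons are between cell classes and no effect of disease or genotype was measured.

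BAFF and APRIL belong to the tumour necrosis factor family and are known as products of myeloid cells that furin-like proteases release. BAFF binds the BAFF receptor, TACI and BCMA, whereas APRIL binds TACI and BCMA. The BAFF receptor is the main survival receptor of resting mature B cells and signals through the non-canonical NF-kB pathway, which is held in check by Traf3, Traf2 and the ubiquitin ligases Birc2 and Birc3 until the kinase Map3k14 (NIK) accumulates and Nfkb2 and Relb are activated. TACI appears on activated and memory-like B cells and on plasma cells, and BCMA supports long-lived plasma cells. IL-6 acts through Il6ra, Il6st (gp130) and Stat3 and is known as a plasma cell growth factor.

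Depth and purity differed between the libraries. After filtering they held 3848, 8256 and 1533 cells with medians of 3956, 4632.5 and 1726 UMIs, where each UMI (unique molecular identifier) stands for a transcript molecule that was captured. The B class had 208, 258 and 67 cells, plasma 22, 102 and 2, macrophage 7, 1759 and 2, monocyte 45, 126 and 20, dendritic 30, 162 and 10, NK 88, 119 and 27, and T 2651, 4744 and 1077. A sum needed 10 cells, so macrophages were summed in library 2 alone and plasma cells in libraries 1 and 2. The gates were checked on their markers: summed B markers reached 5680, 4426 and 3706 CPM (UMIs of a gene as a share of all UMIs of the class, scaled to a fixed total) in B cells, and the 3 Cd3 genes 4645, 3200 and 4190 CPM in T cells. Libraries 2 and 3 each stood apart on markers of other cells. In library 2, all 3 C1q genes, which define macrophages, were detected in T cells at a summed 5144 CPM and in B cells at 2299 CPM, against 36.6 and 12.6 CPM in the T cells of libraries 1 and 3 and 0 in their B cells. In library 2, 987 of 4744 T cells and 23 of 258 B cells held UMIs of at least 2 C1q genes, against 29 and 5 T cells and 0 B cells in libraries 1 and 3. In library 2 so did 13 of 102 plasma cells, whose class had 892 CPM of C1q, and 5 of 119 NK cells. Levels of the ligands are therefore given with and without these cells. In library 3, summed neutrophil markers reached 1585 CPM in T cells, against 3.14 and 18.8 CPM in libraries 1 and 2, and summed monocyte markers reached 749 CPM in its 10 dendritic cells, against 77.8 CPM in library 1 and less in library 2. The part of these transcripts in the results was not tested. Immunoglobulin genes took 59.7% and 51.8% of plasma cell UMIs in libraries 1 and 2 and at most 1.23% of B cell UMIs, which lowers every other gene's CPM in plasma cells. The libraries shared few cell barcodes (36, 7 and 14 between libraries 1 and 2, 1 and 3, and 2 and 3).

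The members lie at separate loci (GRCm38/mm10). Tnfsf13b (ENSMUSG00000031497) spans chr8:10006467-10039072 on the plus strand with up to 7 exons, and Tnfsf13 (ENSMUSG00000089669) spans chr11:69682846-69685784 on the minus strand with up to 6. Tnfrsf13c (ENSMUSG00000068105) spans chr15:82221743-82224369 on the minus strand, Tnfrsf13b (ENSMUSG00000010142) chr11:61126755-61149372 on the plus strand, Tnfrsf17 (ENSMUSG00000022496) chr16:11313812-11320074 on the plus strand and Il6 (ENSMUSG00000025746) chr5:30013114-30019981 on the plus strand. Tnfsf13 sits beside Tnfsf12 (TWEAK, another ligand of this family), at chr11:69686250-69695849 on the same strand. The annotation also has a read-through gene of both, Tnfsfm13 (chr11:69682577-69696098, minus strand), which is not among the rows, so how its reads were assigned is uncertain and may touch the counts of Tnfsf13 and Tnfsf12. Genes on the opposite strand overlap Tnfsf13 (Tnfsf13os), Tnfsf13b (Gm44789) and Tnfrsf13b (Gm12269), the last 2 not among the rows, and whether the counting used strand is not given in the sources used here.

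Promoter windows of the receptors, of BAFF and of APRIL are shown. Each line is the 250 bases before the RefSeq transcription start (GRCm38.p6), read 5′ to 3′ on the gene's strand, with capitals where a searched motif matched on either strand. The searched letters were CAGNTG (E-box), GAGGAA (core of PU.1 sites) and ATGCAAAT (octamer), and, each with 2 free bases between its parts, GGGA and TTCC (NF-kB), GAAA and GAAA (interferon response) and TCCC and GGGA (EBF1).
Tnfrsf13c, chr15:82224381-82224630: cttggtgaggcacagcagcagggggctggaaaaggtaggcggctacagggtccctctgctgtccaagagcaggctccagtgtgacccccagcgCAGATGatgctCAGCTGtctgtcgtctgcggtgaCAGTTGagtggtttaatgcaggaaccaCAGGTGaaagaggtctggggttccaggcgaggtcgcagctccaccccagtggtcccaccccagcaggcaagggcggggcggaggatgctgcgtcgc
Tnfrsf13b, chr11:61126505-61126754: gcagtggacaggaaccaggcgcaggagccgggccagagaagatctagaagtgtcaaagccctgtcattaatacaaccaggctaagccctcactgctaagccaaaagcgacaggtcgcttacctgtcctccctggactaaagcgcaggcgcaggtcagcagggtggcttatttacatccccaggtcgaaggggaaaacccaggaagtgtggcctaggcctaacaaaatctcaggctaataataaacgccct
Tnfrsf17, chr16:11313559-11313808: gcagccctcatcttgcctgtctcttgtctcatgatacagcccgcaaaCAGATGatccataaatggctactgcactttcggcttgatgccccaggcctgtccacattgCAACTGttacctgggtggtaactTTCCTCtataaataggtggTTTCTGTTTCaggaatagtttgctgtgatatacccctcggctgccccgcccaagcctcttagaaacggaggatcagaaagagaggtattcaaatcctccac
Tnfsf13b, chr8:10006217-10006466: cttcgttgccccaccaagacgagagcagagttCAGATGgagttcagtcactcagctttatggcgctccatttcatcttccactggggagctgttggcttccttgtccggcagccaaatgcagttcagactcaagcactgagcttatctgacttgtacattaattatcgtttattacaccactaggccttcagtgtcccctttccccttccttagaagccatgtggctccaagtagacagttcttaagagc
Tnfsf13, chr11:69685555-69685804: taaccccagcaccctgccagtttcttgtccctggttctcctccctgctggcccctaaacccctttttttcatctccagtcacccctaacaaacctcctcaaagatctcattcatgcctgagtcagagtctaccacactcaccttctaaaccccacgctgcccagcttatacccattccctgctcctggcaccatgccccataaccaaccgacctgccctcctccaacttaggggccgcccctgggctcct
The Tnfrsf13c window held 4 E-box letters, starting 157, 146, 123 and 96 bases before the start, whereas 0.56% of all 32851 promoter windows held at least 4 and 44.8% held at least 1. The Tnfrsf17 window held 2 E-boxes, a PU.1 core on the reverse strand (also in 23.3% of windows) and an interferon-type match on the reverse strand (2.98%). The Tnfrsf13b and Tnfsf13 windows held none of the 6 motifs, and the Tnfsf13b window shown held 1 E-box. A second RefSeq start of Tnfsf13b has a window (chr8:10006383-10006632) that overlaps the one shown and held an interferon-type match starting 16 bases before that start, a motif found in 2.98% of windows. The Il6 window (chr5:30012864-30013113) held an NF-kB match starting 44 bases before the start, as 1.21% of windows did. A match of letters is a description of the window and not evidence of binding. For Tnfrsf13c and Tnfrsf17 the RefSeq start lies just outside the annotated locus, and the bases after it were not found in the annotated transcripts. The Tnfsf13 window lies mostly inside the annotated locus, whose upstream end is at chr11:69685784. Much of the second Tnfsf13b window also lies inside its locus, which begins at chr8:10006467. The lack of motifs in the Tnfsf13 window thus describes mostly annotated gene sequence.

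The ligand APRIL was the transcript most tied to macrophages and monocytes. Tnfsf13 reached 176 CPM in the macrophages of library 2 (exact 95% Poisson interval 169 to 183, counting error only), where 1102 of 1759 cells held a UMI, while the 119 NK cells of that library held 2 Tnfsf13 UMIs in all. Monocytes had 49.2, 141 and 120 CPM in libraries 1 to 3, with UMIs in 11 of 45, 66 of 126 and 5 of 20 cells. Monocytes were thus below the macrophages of library 2 but above every other summed class in each library. Dendritic cells, which share the myeloid lineage, had 5.19, 6.90 and 25.4 CPM, the highest in library 3, where monocyte markers were also highest in this class. NK cells had 0, 3.19 and 10.4 CPM, and plasma cells 0 and 9.37 CPM in the 2 summed libraries. After macrophages and monocytes, the order by mean was T, dendritic, B, plasma and NK, and each of these overlapped its neighbour in that order.

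**Figure D1:**
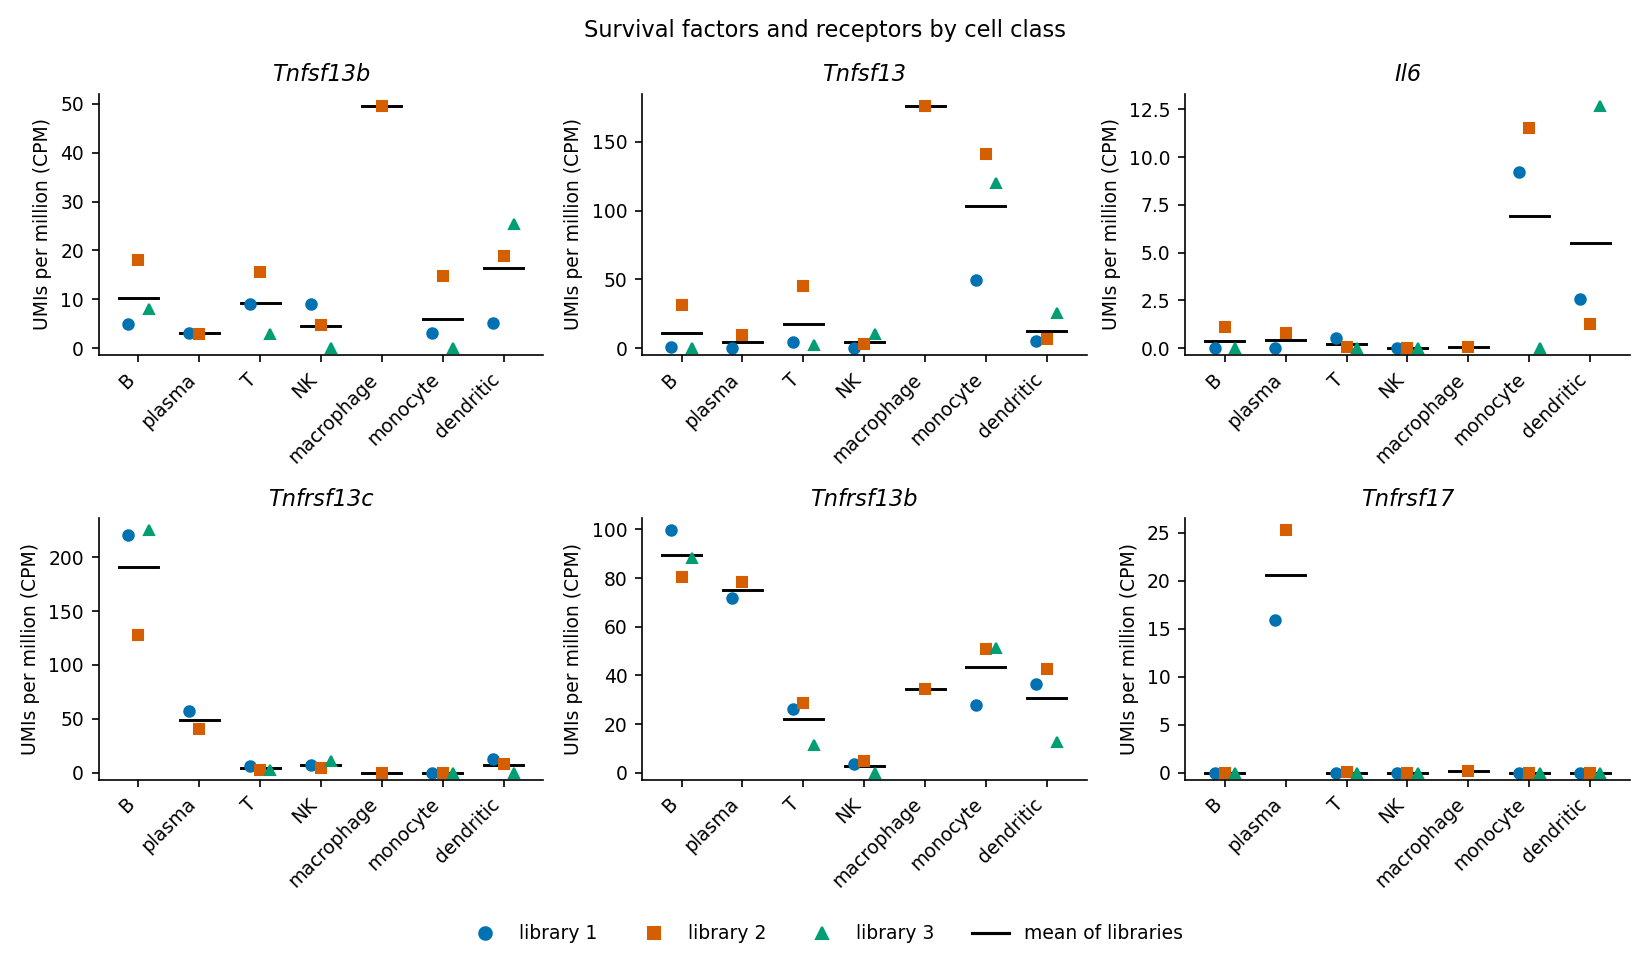
CPM (y axis, linear scale, 1 panel per gene) in the 7 cell classes (x axis), with 1 point per library and a black line at the mean over the libraries that had at least 10 cells of the class. Tnfsf13 and Tnfsf13b are highest in the macrophages of library 2, Tnfrsf13c and Tnfrsf13b in B cells, and Tnfrsf17 in plasma cells, while Il6 reaches at most 12.7 CPM.

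The T and B cell values of Tnfsf13 moved with C1q. T cells had 4.82, 45.4 and 2.03 CPM and B cells 1.23, 31.7 and 0 CPM in libraries 1 to 3, so library 2 was high in both classes. In library 2, 1169 of the 1246 Tnfsf13 UMIs of T cells lay in the 987 cells with at least 2 C1q genes, at 103 CPM. Without cells holding 2 C1q genes, T cells had 3.57, 4.78 and 1.63 CPM and B cells 1.23, 1.39 and 0 CPM, and library 2 no longer stood apart. In library 2 the plasma value went from 9.37 to 0 CPM and the NK value from 3.19 to 3.38 CPM. T cells were then below dendritic cells in each library, but the dendritic values rest on 2, 11 and 2 UMIs. In libraries 1 and 2 the T cell value lay within the dendritic Poisson interval (0.63 to 18.7 and 3.44 to 12.3 CPM). In library 3 the intervals overlapped (3.08 to 91.8 CPM in dendritic and 0.44 to 4.17 in T cells). C1q transcripts moved with the Tnfsf13 UMIs of T and B cells, and their part in the result was not tested.

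**Figure D2:**
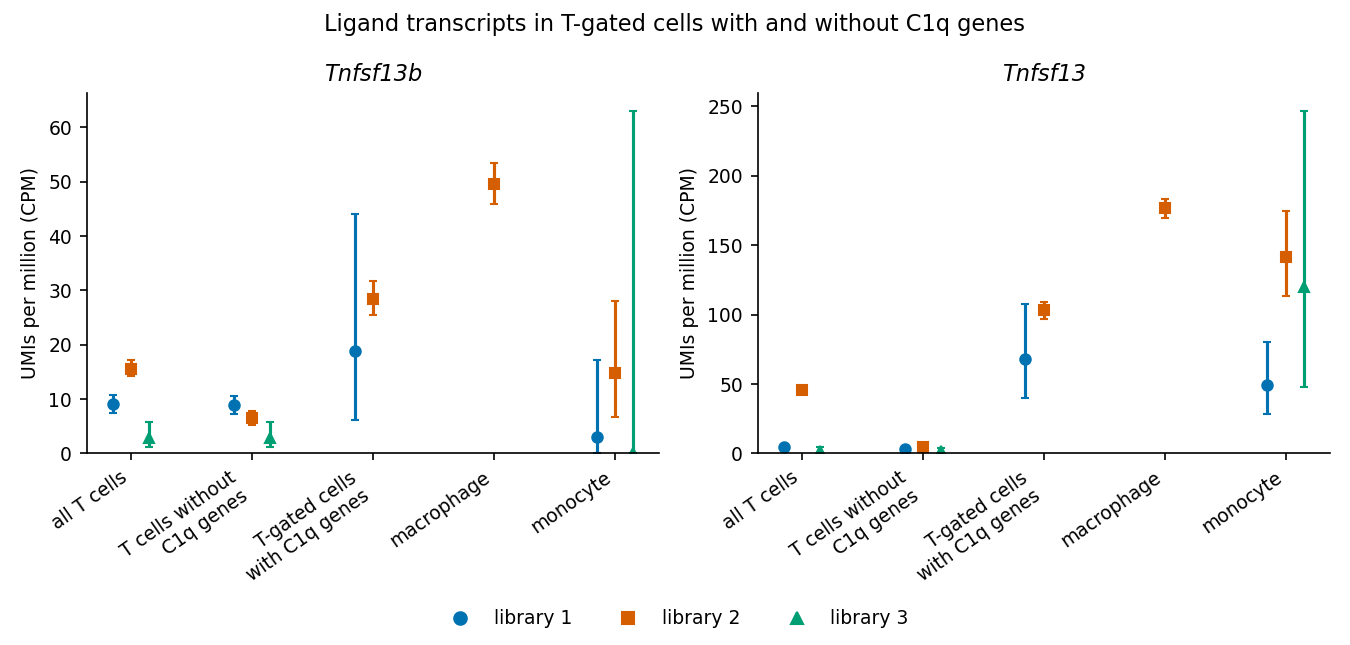
CPM (y axis, linear scale) of Tnfsf13b and Tnfsf13 in T cells, T cells without C1q genes, T-gated cells with at least 2 C1q genes, macrophages and monocytes (x axis), with 1 point per library and bars for exact 95% Poisson intervals. In library 2 the T-gated cells with C1q genes sit at 103 CPM for Tnfsf13 and 28.5 CPM for Tnfsf13b, between the other T cells and the macrophages.

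Sums of UMIs were compared with the quasi-likelihood test of edgeR, blocked by library, and the p-values of all genes tested were adjusted together by the Benjamini-Hochberg method. A gene was called at an adjusted p under 0.05. The p-values measure the spread among 3 libraries, of which the macrophage sum has 1, whose spread is assumed to be that of the other classes. In such sums, fewer expressing cells and less RNA per cell cannot be told apart. Between the mean of macrophages, monocytes and dendritic cells and the mean of T, NK and B cells, 5 of 6 members passed the filter on low counts, and 4 were called, 3 higher and 1 lower in myeloid cells, where 41.2% of the 9879 genes tested were called. The lower member was Tnfrsf13c (edgeR adjusted p = 1.56e-06). Tnfsf13 was higher in myeloid cells with a log2 difference of 2.54 (SE 0.48, edgeR adjusted p = 0.00025), and of 4.62 (SE 0.40, edgeR adjusted p = 6.59e-11) with the C1q-holding lymphoid cells left out, a fit in which 48.0% of genes were called. This alternative, and those that leave out macrophages or keep plasma cells with 1 Cd3 gene, were chosen after seeing the data. Within the myeloid classes, Tnfsf13 was lower in dendritic cells than in macrophages by a log2 difference of -4.46 (SE 0.71, edgeR adjusted p = 0.00014) and than in monocytes by -4.46 (SE 0.73, edgeR adjusted p = 0.00018). With DESeq2 the difference from macrophages was -3.08 and was not called (adjusted p = 0.17), and without the library block the difference from monocytes was -3.72 (edgeR adjusted p = 0.087). Without library 3, whose dendritic cells had the monocyte markers, the differences were -4.67 and -4.50, both called. Without library 2, the difference from monocytes was -2.71 (SE 1.13, edgeR adjusted p = 0.12). The 2 ligand-rich classes were not separated, with a difference of 0.00 between monocytes and macrophages (SE 0.48, edgeR adjusted p = 1.0), a value whose sign changed with the setting.

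The neighbour Tnfsf12 followed part of this pattern, at 129 CPM in the macrophages of library 2 and 9.23, 87.1 and 17.1 CPM in monocytes. It differed in NK cells, where it had 21.9, 78.3 and 52.1 CPM while Tnfsf13 had at most 10.4. The 2 rows therefore did not move as 1 gene across the classes.

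BAFF transcripts were more spread out. Tnfsf13b reached 49.6 CPM in the macrophages of library 2 (exact 95% Poisson interval 46.0 to 53.5), with 688 of the 1290 Tnfsf13b UMIs of that library. Dendritic cells had 5.19, 18.8 and 25.4 CPM, B cells 4.92, 18.1 and 8.04, T cells 9.05, 15.6 and 2.84, and monocytes 3.08, 14.8 and 0. NK cells had 9.13, 4.79 and 0 CPM and plasma cells 3.19 and 2.85 CPM. Macrophages were above every other class in library 2, and each of the other 6 classes overlapped its neighbour in the order of means. Among dendritic cells, the type 1 subset (cross-presenting cells marked by Xcr1 and Clec9a) had 7.03, 25.3 and 53.3 CPM, which rest on 2, 25 and 2 UMIs.

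Tnfsf13b was higher in myeloid than in lymphoid cells with a log2 difference of 1.19 (SE 0.34, edgeR adjusted p = 0.0083) and of 1.79 (SE 0.36, edgeR adjusted p = 0.00014) without the C1q-holding lymphoid cells. With macrophages left out of the myeloid mean it was 0.52 (SE 0.40, edgeR adjusted p = 0.34), so the call rested on the macrophages of library 2. T cells without 2 C1q genes had 8.85, 6.52 and 2.85 CPM, and in library 2 plasma cells without them had 1.88 and NK cells 5.06 CPM. Monocytes were lower than macrophages by a log2 difference of -2.26 (SE 0.54, edgeR adjusted p = 0.025), the single member called where 2.28% of genes were called, and Tnfsf13 was not. The call was lost without library 1 (-1.95, edgeR adjusted p = 0.25) and without library 3 (-2.18, edgeR adjusted p = 0.058). Dendritic cells were lower than macrophages by -1.72 (SE 0.43, edgeR adjusted p = 0.0072), and by -1.40 without library 1 (edgeR adjusted p = 0.14). In dendritic cells against macrophages 3 members were called where 16.1% of genes were called, and against monocytes 2 where 14.8% were called. Dendritic cells and monocytes had a Tnfsf13b difference of 0.53 (SE 0.62, edgeR adjusted p = 0.66).

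**Figure D3:**
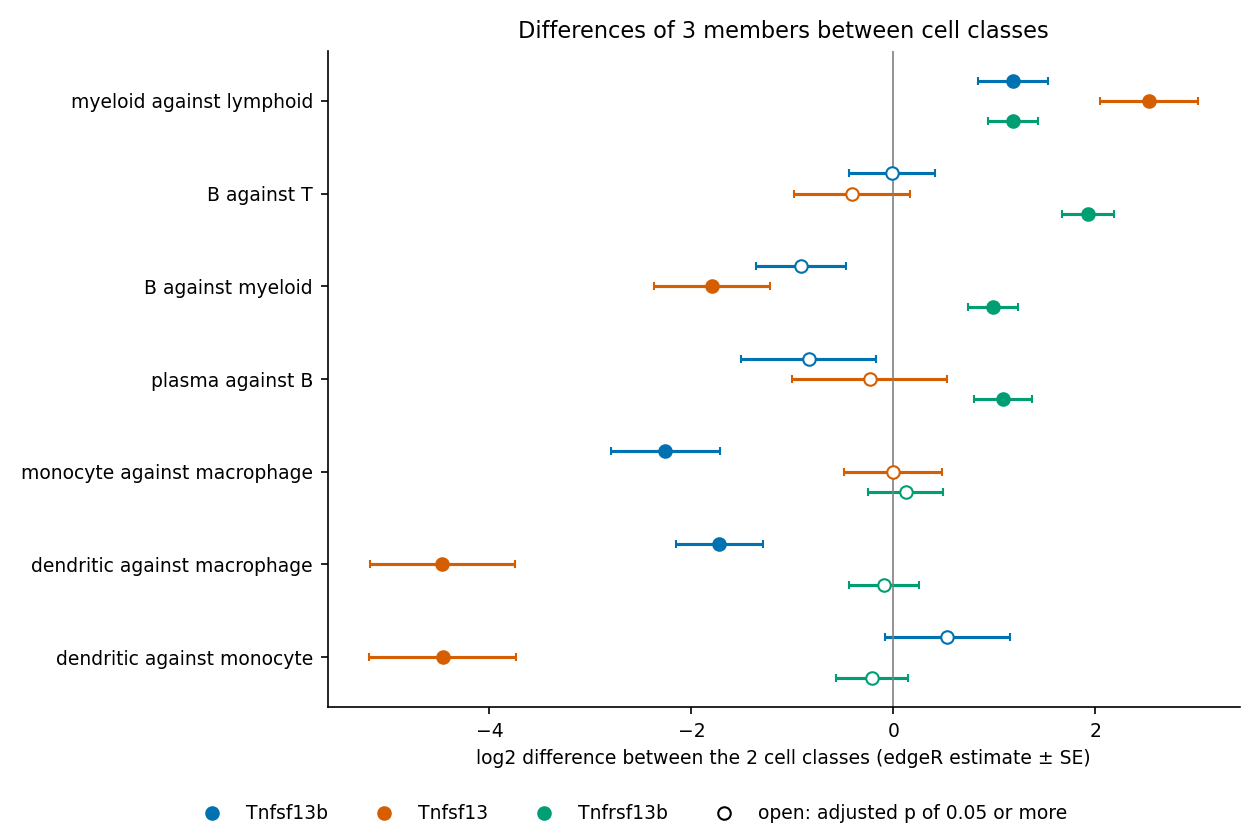
Log2 difference between 2 cell classes (x axis, edgeR estimate with its SE as bars) for Tnfsf13b, Tnfsf13 and Tnfrsf13b in the 7 class comparisons (y axis), with filled points at an adjusted p under 0.05. Tnfsf13 is lower in dendritic cells than in macrophages and monocytes, Tnfsf13b is lower in monocytes and dendritic cells than in macrophages, and Tnfrsf13b is higher in B than in T or myeloid cells and higher in plasma than in B cells on this scale.

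Il6 was barely detected. The 3 libraries held 37 Il6 UMIs in 24 cells, and the gene did not pass the filter on low counts. Monocytes held 3, 7 and 0 of these UMIs, and the 7 of library 2 lay in 1 cell. T cells held 7, 2 and 0, dendritic cells 1, 2 and 1, and the 1759 macrophages of library 2 held 1. With no filter, Il6 was called between monocytes and macrophages (edgeR adjusted p = 0.0089), a comparison of 10 UMIs with 1. At this depth, levels of Il6 in single classes were not resolved.

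The BAFF receptor marked B cells most sharply. Tnfrsf13c had 220, 128 and 225 CPM in B cells (191 ± 54.7, SD, n = 3 libraries), from 179, 113 and 28 UMIs in 102 of 208, 68 of 258 and 17 of 67 cells. Plasma cells had 57.4 and 40.4 CPM, below B cells in both summed libraries. NK cells had 7.31, 4.79 and 10.4 CPM, dendritic cells 12.96, 8.14 and 0, and T cells 6.57, 2.91 and 2.43, and these 3 classes overlapped. Macrophages and monocytes held no UMI in 1759 and 191 cells.

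To compare shares of cells at equal depth, each cell was thinned to 1000 UMIs, which left out 15, 0 and 7 B cells. Tnfrsf13c was then detected in 16.6% (exact 95% interval 11.6 to 22.6), 12.0% (8.31 to 16.6) and 15% (7.10 to 26.6) of B cells and in 0 of 1749 macrophages of library 2, whose interval reached 0.211%. Before thinning, the shares were 49.0%, 26.4% and 25.4% at median depths of 3882, 2626 and 1730 UMIs, against 0 in macrophages at a median of 7607 UMIs. The order of libraries in the raw shares thus followed depth, and the thinned shares overlapped.

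Between B and T cells, 2 of the 5 tested members were called, both higher in B cells, where 22.5% of all genes were called. Tnfrsf13c was higher in B cells with a log2 difference of 5.46 (SE 0.27, edgeR adjusted p = 3.52e-11) and Tnfrsf13b of 1.93 (SE 0.25, edgeR adjusted p = 5.72e-06). The ligands gave -0.01 for Tnfsf13b (SE 0.43, edgeR adjusted p = 0.99) and -0.41 for Tnfsf13 (SE 0.57, edgeR adjusted p = 0.67). Between B and myeloid cells, 3 of 5 were called, where 37.1% of all genes were called: the 2 receptors higher and Tnfsf13 lower in B cells. Because no macrophage or monocyte UMI was seen, Tnfrsf13c is given as a bound against 3 counts over the group. It was at least 592-fold higher in B cells than in macrophages of library 2 and at least 58.1-fold higher than in monocytes of the 3 libraries, a bound of 31.1 without library 1, 28.2 without library 2 and 53.6 without library 3. The fitted difference from the myeloid mean had an edgeR adjusted p of 3.18e-11. Tnfsf13 was lower in B than in myeloid cells by -1.79 (SE 0.57, edgeR adjusted p = 0.018), and by -5.47 (SE 0.63, edgeR adjusted p = 3.54e-08) without C1q-holding lymphoid cells. It was -1.05 (edgeR adjusted p = 0.22) without macrophages and -1.41 (edgeR adjusted p = 0.088) without library 1. Tnfsf13b gave -0.92 (SE 0.44, edgeR adjusted p = 0.11) in this comparison, and -1.56 (SE 0.49, edgeR adjusted p = 0.010) without C1q-holding lymphoid cells. Tnfrsf13c was also called higher in dendritic cells than in macrophages (edgeR adjusted p = 2.70e-05) and monocytes (edgeR adjusted p = 0.0095), from 5, 13 and 0 UMIs in dendritic cells against none.

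TACI was not limited to the B lineage. Tnfrsf13b had 99.7, 80.5 and 88.4 CPM in B cells (89.5 ± 9.68, SD, n = 3 libraries), from 81, 71 and 11 UMIs. Monocytes had 27.7, 51.0 and 51.3 CPM, macrophages of library 2 had 34.3, dendritic cells 36.3, 42.6 and 12.7 and T cells 26.2, 28.7 and 11.3, and these 4 classes overlapped. NK cells were lowest, with 3.65, 4.79 and 0 CPM. B cells were above each of these classes in each library. The difference of B from myeloid cells was 0.98 in log2 units (SE 0.25, edgeR adjusted p = 0.0036), and 0.97 without library 1 (SE 0.39, edgeR adjusted p = 0.073). Myeloid cells were above the mean of T, NK and B cells by 1.18 (SE 0.25, edgeR adjusted p = 0.00067), a mean that NK cells pull down.

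Plasmacytoid dendritic cells, the interferon-producing cells marked by Siglech, had 99.1, 171 and 115 CPM of Tnfrsf13b, from 4, 32 and 2 UMIs in 9, 42 and 5 cells. In library 2, where the sum had enough cells, the exact 95% Poisson interval was 117 to 241 CPM, and 22 of 42 cells held a UMI. This class was gated apart from dendritic cells and entered no class comparison. Among the other dendritic subsets, type 2 cells (marked by Cd209a and Clec10a) had 36.4, 54.1 and 31.6 CPM from 2, 15 and 1 UMIs. Mature cells (marked by Fscn1 and Ccl22) had no UMI in 5, 39 and 3 cells. In library 2 alone, the single library with enough cells of both, type 2 cells were at least 4.296-fold higher than mature cells against a floor of 3 counts. With 1 sum on each side, this difference has no replicate check and no test is given.

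BCMA was found in plasma cells. Tnfrsf17 had 16.0 CPM in library 1 (10 UMIs, 6 of 22 cells) and 25.3 CPM in library 2 (62 UMIs, 32 of 102 cells), and no UMI in the 2 plasma cells of library 3. B cells held none in 208, 258 and 67 cells, and the other classes held 3 UMIs in all, 2 in macrophages and 1 in T cells. Plasma cells of libraries 1 and 2 were at least 13.2-fold above B cells against a floor of 3 counts over 466 B cells (edgeR adjusted p = 0.00018), although DESeq2 gave an adjusted p of 0.25. The bound was 7.43-fold without library 1 and 4.32-fold without library 2. Over the libraries together, more Tnfrsf17 UMIs lay outside the class than in it. Cells of no class held 53 in library 1 against 10 in plasma cells, but 44 in library 2 against 62. The plasma gate bars any Cd3 UMI. Cells with plasma markers and at least 1 Cd3 gene held 52 UMIs in 36 cells of library 1 and 41 in 49 cells of library 2. With plasma cells holding 1 Cd3 gene kept, the level was 47.5 CPM (55 UMIs, 11 of 40 cells) and 26.6 CPM (70 UMIs, 35 of 109 cells). In library 1, 45 of these UMIs lay in 5 of the added cells.

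The 3 receptors changed differently from B to plasma cells, and the direction for TACI depended on the scale. Per cell, Tnfrsf13b had 0.389, 0.275 and 0.164 UMIs in B cells and 2.05 and 1.88 in plasma cells, whose median depth was 28655.5 and 22857.5 UMIs. As CPM over all genes it was lower in plasma cells, at 71.8 and 78.3 against 99.7, 80.5 and 88.4. With immunoglobulin genes left out of the totals it was higher, at 178 and 162 against 101, 81.2 and 89.2 CPM. TMM scaling, which edgeR used, gave a log2 difference of 1.09 (SE 0.28, edgeR adjusted p = 0.0062), in the direction of the values per cell and opposite to plain CPM. Without library 1 it was 0.94 (edgeR adjusted p = 0.23) and without library 2 it was 0.85 (edgeR adjusted p = 0.21). Thinned to 1000 UMIs, 0 of 21 and 6 of 102 plasma cells held a Tnfrsf13b UMI, against 20 of 193, 20 of 258 and 3 of 60 B cells. The thinning draws from all UMIs, immunoglobulin included, so these shares follow plain CPM and are not a separate check. They are also a single random draw. With plasma cells holding 1 Cd3 gene kept, 4 of 38 and 8 of 109 plasma cells held a UMI, against 19 of 193 and 21 of 258 B cells in libraries 1 and 2.

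Tnfrsf13c also stayed present in plasma cells. It had 1.64 and 0.971 UMIs per cell against 0.861, 0.438 and 0.418 in B cells, 142 and 83.7 CPM without immunoglobulin genes against 223, 129 and 227, and a log2 difference of -0.40 (SE 0.28, edgeR adjusted p = 0.31). The direction was thus down on both CPM scales and up per cell, and the test did not call it. Tnfrsf17 without immunoglobulin genes was at 39.6 and 52.4 CPM in plasma cells. Between plasma and B cells, 2 of 5 members were called, Tnfrsf13b and Tnfrsf17, where 28.4% of all genes were called. In single cells, UMIs of both Tnfrsf13c and Tnfrsf13b were seen in 35 of 208, 13 of 258 and 4 of 67 B cells and in 12 of 22 and 39 of 102 plasma cells.

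**Figure D4:**
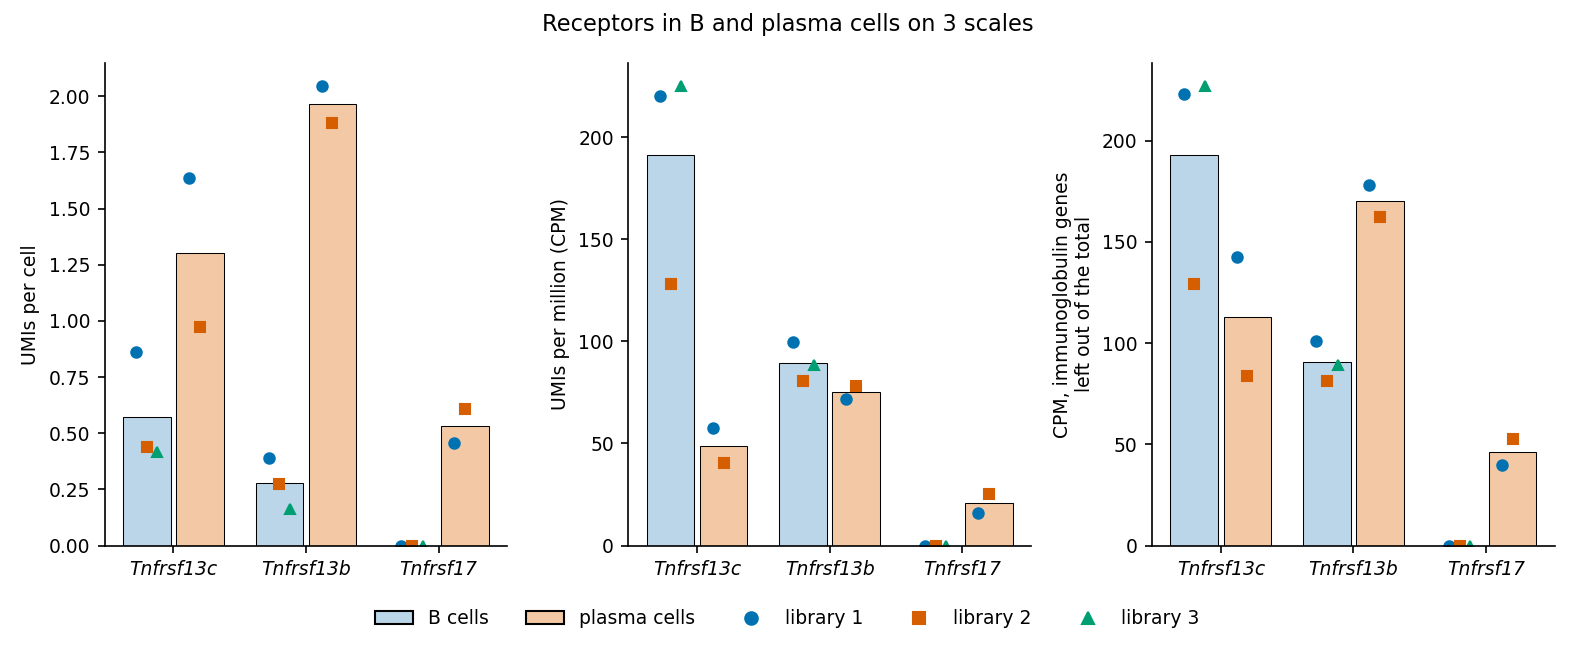
Tnfrsf13c, Tnfrsf13b and Tnfrsf17 (x axis) in B and plasma cells as UMIs per cell, as CPM of all genes and as CPM with immunoglobulin genes left out of the total (y axes, linear from 0). Bars are means over libraries and points are libraries. Tnfrsf13b is higher in plasma cells in the left and right panels and lower in the middle, and Tnfrsf17 is seen in plasma cells on each scale.

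Within B cells, the receptors did not separate by Ighd, which encodes the IgD heavy chain of naive B cells. Tnfrsf13c had 206, 105 and 250 CPM in cells with an Ighd UMI and 231, 139 and 218 in cells without one, a log2 difference of 0.29 (SE 0.24, edgeR adjusted p = 0.90). Tnfrsf13b had 73.5, 63.2 and 71.4 CPM with and 120, 88.7 and 93.3 CPM without Ighd. It was thus higher without Ighd in each of the 3 libraries, but the difference of 0.64 (SE 0.35) was not called (edgeR adjusted p = 0.82), and no member was, where 0.211% of 8994 genes were called. A cell without an Ighd UMI may still express Ighd, since the split rests on detection.

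Within CD4 T cells, those with a Foxp3 UMI, the marker of regulatory T cells, had 12.9, 5.03 and 13.8 CPM of Tnfrsf13c, from 19, 13 and 1 UMIs, against 5.46, 1.70 and 2.64 in the others. The value was higher in each library, and the log2 difference was 1.36 (SE 0.41, edgeR adjusted p = 0.088). It passed the threshold under 2 of 12 alternatives and not under the others, with differences from 1.13 to 1.72 over all 12. Tnfrsf13b had 49.6, 41.0 and 13.8 CPM in Foxp3 cells against 29.0, 34.4 and 29.1, and 12.7, 16.2 and 0 in CD8 T cells. Tnfsf13b had 2.04, 13.5 and 0 CPM in Foxp3 cells against 10.1, 22.04 and 7.93, a difference of -1.10 (SE 0.35, edgeR adjusted p = 0.13). No member was called here, where 2.18% of genes were called.

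The 23 genes fixed as the signalling side of these receptors all passed the filter. They comprise 12 genes of the NF-kB pathways, 6 of IL-6 reception, Furin and 4 survival genes. The clearest shift was between plasma and B cells: 12 were lower and 1 higher in plasma cells, where 28.4% of all genes were called, with a list median of -1.41 on the log2 scale against -0.05 over all genes tested. Rel, the NF-kB subunit c-Rel, was lower by a difference of -4.14 (SE 0.37, edgeR adjusted p = 4.09e-08), and the kinase Jak1 by -2.51 (SE 0.35, edgeR adjusted p = 1.30e-05). Among the non-canonical genes, Map3k14 (-2.15), Birc3 (-1.79), Nfkb2 (-1.36) and Relb (-1.31) were also called lower. Traf2 (-0.73, edgeR adjusted p = 0.26), Traf3 (-0.49, 0.42) and Birc2 (0.06, 0.95) were not called. These differences are on the TMM scale, and per cell not all were lower. In library 2, 102 plasma cells held 37 Relb and 28 Nfkb2 UMIs, against 51 and 46 in 258 B cells, which is more per cell. In library 1, 22 plasma cells held 5 and 6, against 79 and 103 in 208 B cells, which is fewer. Rel was lower per cell in both libraries, with 5 and 20 UMIs in plasma cells against 390 and 305 in B cells. Bcl2l1, which encodes the survival protein Bcl-xL, was the gene called higher, at 2.36 (SE 0.74, edgeR adjusted p = 0.020), while Bcl2 was lower at -1.70. The Bcl2l1 value rests on few UMIs: B cells held 1, 3 and 0 (1.23, 3.40 and 0 CPM) and plasma cells 2 and 12 (3.19 and 4.89 CPM). Without library 1 the counts were 8 lower and 0 higher, and without library 2 they were 11 lower and 0 higher of 22. Without the cells of highest UMI counts they were 6 lower and 0 higher, and without the library block 7 lower and 1 higher. With DESeq2, with stricter gates and without C1q-holding lymphoid cells they were each 13 lower and 0 higher. Wherever the count was 0 higher, the Bcl2l1 call was lost.

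**Figure D5:**
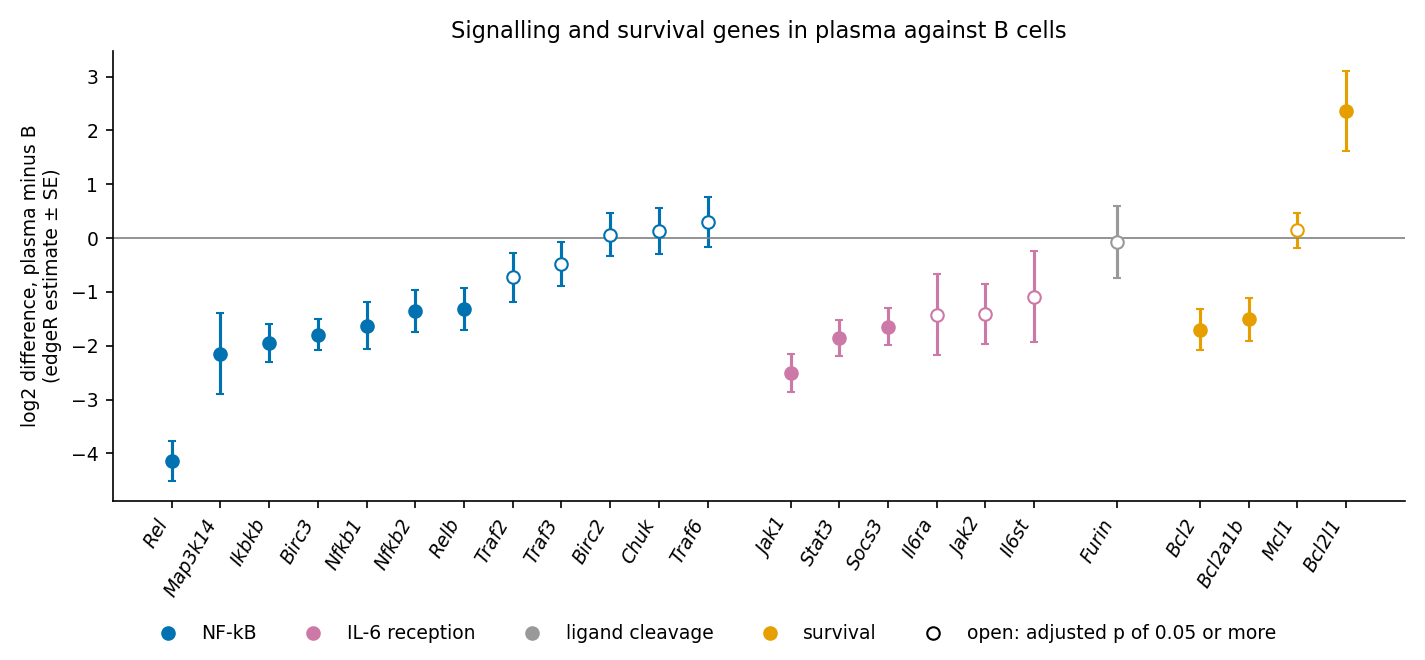
Log2 difference of plasma minus B cells (y axis, edgeR estimate with its SE as bars) for 23 signalling and survival genes (x axis), grouped as NF-kB, IL-6 reception, ligand cleavage and survival, with filled points at an adjusted p under 0.05. Rel is lowest at -4.14 and Bcl2l1 highest at 2.36.

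In myeloid against lymphoid cells, 9 of the 23 were higher and 3 lower, where 41.2% of all genes were called, with a list median of 0.37 against -0.05 over all genes. Il6ra, the IL-6 receptor, had 142, 82.2 and 68.4 CPM in monocytes, 45.2 in macrophages of library 2 and 62.2, 29.5 and 25.4 in dendritic cells, against 33.4, 31.1 and 15.8 in T cells and 13.5, 7.93 and 0 in B cells. NK cells held no Il6ra UMI, so its fitted difference is not given (edgeR adjusted p = 1.02e-08). Bcl2 was lower in myeloid cells at -2.82 (SE 0.24, edgeR adjusted p = 1.04e-08) and Mcl1, a survival gene of the same family, higher at 1.60 (SE 0.19, edgeR adjusted p = 6.01e-07). Between B and T cells 2 genes were higher, among them Rel at 1.75, and 6 lower, with Bcl2l1 at -3.35 and Il6ra at -1.68, where 22.5% of all genes were called. Between B and myeloid cells 4 were higher and 6 lower, with Bcl2 at 2.72, Il6ra at -2.98 and Bcl2l1 at -2.86, where 37.1% of all genes were called. The Bcl2l1 values of B cells are those 4 UMIs. Plasma cells held 0 and 4 Il6ra UMIs in 22 and 102 cells.

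In monocytes against macrophages 1 gene was called, Bcl2l1, lower at -2.09 (SE 0.51, edgeR adjusted p = 0.030), where 2.28% of all genes were called. Dendritic cells had 3 higher and 4 lower than macrophages, with Jak2 at 2.01, Bcl2l1 at -1.91 and Socs3, an inhibitor of cytokine signalling, at -1.71, where 16.1% of all genes were called. They had 2 higher and 5 lower than monocytes, with Furin at -1.56, Birc2 at 1.44 and Il6ra at -1.43, where 14.8% were called. Birc2 was higher in dendritic cells in library 2 alone (75.2 against 14.8 CPM). It was lower in library 1 (18.1 against 21.5 CPM) and library 3 (25.4 against 34.2 CPM). The counts against monocytes were 0 higher and 5 lower with DESeq2, and 0 and 4 of 22 without library 2. Without the block they were 0 and 0, and with sums of at least 20 cells 5 and 4. Bcl2l1 rested on 2, 6 and 0 UMIs in monocytes and 3, 17 and 0 in dendritic cells, against 408 in macrophages of library 2. Its call in monocytes against macrophages was lost with DESeq2, without the block and without library 1. In library 2 alone, the fitted differences of mature minus type 2 dendritic cells had a list median of 1.33 against 0 over all genes. Birc2 was at 3.45 and Traf3 at 3.25, and Il6ra had 0 UMIs in mature cells against 17. These are values of 1 sum on each side, given with no test. Between the Foxp3 and other CD4 T cells 1 gene was called, Bcl2 at -1.79 (SE 0.25, edgeR adjusted p = 8.20e-05), where 2.18% of all genes were called, and between the B subsets none was.

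Across the 18 sums of class and library, the genes whose log2(CPM + 1) ran most like each member were listed, members and gate markers left out. These correlations are a description over sums that share libraries, among 9823 genes. For Tnfsf13 they were Npl (Pearson r = 0.93), Snx24 (0.92) and Itgb5 (0.92), and for Tnfsf13b Retsat (0.87), Csad (0.87) and Cryl1 (0.85). For Tnfrsf13c they were Scd1 (0.93), Mast4 (0.93) and H2-Eb2 (0.92), and for Tnfrsf13b Scpep1 (0.93), Ly6e (0.89) and Btk (0.86), a kinase of B cell receptor signalling. For Tnfrsf17 they were Ccr10 (0.99), a chemokine receptor, Nuggc (0.99) and Bhlha15 (0.97), a factor of secretory cells. A gene seen in plasma cells alone reaches a high value here whatever its size.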

How the data were processed

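Single-cell 5′ gene expression was measured by the authors with the 10x Genomics V(D)J chemistry in 3 libraries. Reads were mapped to mm10 by the authors with Cell Ranger (5.0.1 for library 1, 6.1.2 for libraries 2 and 3), and the deposited values are unnormalized UMI counts of each gene in each filtered barcode, with 3926, 8311 and 1533 barcodes and 22983991, 55120460 and 3399733 UMIs. Each matrix had 32285 rows. The matrix of library 1 was read in the row order of the others: across genes, Spearman's rho of row totals was 0.950 (library 2) and 0.929 (library 3), above the limit of 0.9, and 0.355 and 0.324 when shifted by 1 row.

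Following the study, cells under 300 UMIs, over 5000 genes or over 20% mitochondrial UMIs were removed, that is 54, 42 and 0 cells by genes and 24, 13 and 0 by mitochondrial share. A marker counted as detected with 1 UMI. T cells needed 2 of 3 Cd3 genes and no B marker, B cells 2 B markers and no Cd3 gene, plasma cells 3 plasma markers and no Cd3 gene, and macrophages 2 C1q genes and 2 further markers. NK, monocyte, dendritic and plasmacytoid dendritic cells were gated likewise. A cell passing both the dendritic and the monocyte gate was kept as dendritic. Other cells passing 2 gates, and cells passing none, had no class. No doublet caller was run, and how many doublets the gates removed or kept was not tested.

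UMIs were summed per class and library, with at least 10 cells a sum. The 18 class sums (9879 genes) and 20 subset sums (8994 genes) were fitted with edgeR 4.0.16 in R 4.3.3: TMM, filterByExpr, quasi-likelihood test, library as a block because all classes of a library come from the same mice, and Benjamini-Hochberg adjustment over all genes. The steps were tested on simulated data. Levels are CPM on all UMIs of a class, given per library. Intervals cover counting error only. Where a class held no UMI, a bound was set with 3 counts. Named genes were the 6 members, the neighbour Tnfsf12, the 3 largest called differences of the signalling list per comparison, and the 3 genes most like each member. The other non-canonical NF-kB genes and Bcl2 named for plasma cells were chosen after their values were seen. Alternatives were DESeq2 1.42.0, no filter, no block, each library left out, stricter gates, immunoglobulin genes left out, cells over the 95th percentile of UMIs or under 1000 UMIs left out, sums of at least 20 cells, and 3 added after seeing the data. The members and lists were chosen with earlier results of these data known. The paired antigen receptor libraries were not analysed here.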

Additional observations from a re-analysis of the deposited data

Results flagged for a closer look

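UMIs of every member were also found in the cells that no gate took, above the limit of 3 counts that a count of 0 allows. These cells numbered 788, 944 and 323 in libraries 1 to 3 and entered no comparison. They held 142 Tnfsf13b UMIs (9.63% of all Tnfsf13b UMIs in kept cells), 300 Tnfsf13 UMIs (7.07%), 463 Tnfrsf13c UMIs (41.2%), 698 Tnfrsf13b UMIs (23.9%), 97 Tnfrsf17 UMIs (56.4%) and 10 Il6 UMIs (27.0%).

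Over the 3 libraries together the share was larger for the 3 receptors and Il6 than for the ligands, but not in each library. In library 3 it was 28.6% for Tnfsf13 and 16.7% for Tnfsf13b against 14.8% for Tnfrsf13b and 25.5% for Tnfrsf13c, and in library 1 it was 0% for Il6 against 24.6% for Tnfsf13 and 19.2% for Tnfsf13b. For Tnfrsf13c, 283 of the 343 unclassed UMIs of library 1 lay in 247 cells with at least 2 B markers and at least 1 Cd3 gene, 45 of 108 in 91 such cells of library 2 and 4 of 12 in 12 such cells of library 3. For Tnfrsf13b the same cells held 114 of 343, 59 of 347 and 2 of 8 UMIs. For Tnfrsf17 they held 0 of 53 and 2 of 44 in libraries 1 and 2, where 52 and 41 UMIs lay in cells with plasma markers and a Cd3 gene. What these cells with markers of several lineages are was not tested.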

How the results depend on the processing

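The classes of a library share mice, so the fit has the library as a replicate block. Without the block, Tnfrsf13b in B against myeloid cells was 0.89 (edgeR adjusted p = 0.060), Tnfsf13b was -2.75 in monocytes (0.24) and -2.11 in dendritic cells (0.11) against macrophages, and Tnfsf13 in dendritic cells against monocytes was -3.72 (0.087), all no longer called. With DESeq2, the adjusted p was 0.079 for Tnfsf13b in myeloid against lymphoid cells (1.10), 0.35 for Tnfsf13b (-1.61) and 0.17 for Tnfsf13 (-3.08) in dendritic cells against macrophages, and 0.247 for Tnfrsf17 in plasma against B cells. Stricter gates gave Tnfsf13b 1.35 in myeloid against lymphoid cells (edgeR adjusted p = 0.059), and macrophages left out 0.52 (0.34). For monocytes against macrophages, the Tnfsf13 difference of 0.00 was 0.34 with DESeq2, 0.029 without immunoglobulin genes, 0.035 without cells over the 95th percentile of UMIs and 0.0098 with sums of at least 20 cells, none called.

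With 1 library left out in turn, Tnfrsf13b ranged from 0.95 to 0.97 in B against myeloid cells and from 0.85 to 1.07 in plasma against B cells. Tnfsf13b ranged from -2.18 to -1.95 in monocytes and from -1.75 to -1.40 in dendritic cells against macrophages, and Tnfsf13 from -4.50 to -2.71 in dendritic cells against monocytes. Without library 2 no macrophage sum remained, and DESeq2 gave no adjusted p for Tnfsf13b in monocytes against macrophages. For the main values, 137 results under the alternatives fixed at the start kept direction and call and 16 lost the call, and 23 and 1 under those added later. Over its 12 alternatives Tnfsf13 in myeloid against lymphoid cells stayed called, from 1.79 to 4.62. None of these left out library 2, without which this comparison could not be fitted. In B against T cells, Tnfrsf13c (5.32 to 5.78) and Tnfrsf13b (1.78 to 2.32) stayed called over 12 alternatives that did include leaving out library 2.

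Genes called over the alternatives ranged from 2594 to 4670 for myeloid against lymphoid cells, 1119 to 2943 for B against T, 1943 to 4171 for B against myeloid, 741 to 3268 for plasma against B, 15 to 576 for monocytes and 643 to 2197 for dendritic cells against macrophages, 691 to 1714 for dendritic cells against monocytes, 4 to 82 for the B subsets, 68 to 743 for mature against type 2 dendritic cells and 12 to 438 for the CD4 T subsets. Without the block the last 2 counts were 68 and 12. The mature and type 2 sums are 1 library each, so those counts rest on a spread taken from the other subsets. Calls split 101 higher and 124 lower for monocytes and 646 and 940 for dendritic cells against macrophages, and 118 and 70, and 570 and 491, with DESeq2. With DESeq2, which differs in both scaling and model, the median log2 difference of all genes moved by at most 0.15 (B against myeloid cells).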
